A study of Danio rerio with 18 samples.

Results

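ECs and HSCs from thioacetamide-injured zebrafish livers were compared by their accessible chromatin, to find which differences between the 2 cell types remained after injury and which were new. Accessibility was profiled by ATAC-seq, in which a transposase cuts open DNA and leaves sequencing adapters there, so that fragments pile up into peaks over open regions. The EC TAA list held 54209 peaks and the HSC TAA list 61245, together 115454 of the 308216 peaks in the 6 lists of the series. A peak with no overlap of 1 bp in the other list was called specific, and every other peak was called shared, which gave 5386 EC TAA-specific peaks (9.94% of the list) and 12636 HSC TAA-specific peaks (20.6%). All ECs were mCherry-positive cells sorted from livers of Tg(kdrl:ras-mCherry) fish and all HSCs were EGFP-positive cells from Tg(hand2:EGFP) fish, adult females in the AB background. The TAA groups received thioacetamide into the abdomen at 500 mg/kg, 6 times in 2 weeks. The control groups were injected on the same schedule, with what the paper calls sterile water in places and saline in others. Hepatocytes (HEPs) sorted as dsRed-positive cells from Tg(fabp10a:dsRed) fish, with TAA and with the control injection, were used here only to look up peaks. Each cell type came from its own reporter line, so cell type and line cannot be told apart.

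Each group had 3 libraries of 60000 sorted cells, which the authors combined into 1 peak list. No list was used for a single library, no spread between replicates could be computed, and no test was possible. The 95% Wilson intervals given with shares cover counting error over peaks only. The lists hold no read counts, so depth is unknown, and deeper sequencing alone can lengthen a list. A score is 10 times the negative log10 of the peak's q-value with a cap at 3240, and it was used to rank peaks within a list (rank 1 is the best). Scores of a region in several lists are printed as deposited, and their order can differ from that of the ranks. A peak in sorted cells can stand for a region open in all of them or in a fraction, and these cannot be told apart.

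ECs line the hepatic sinusoids, the capillaries through which blood meets hepatocytes. HSCs lie between ECs and hepatocytes, store vitamin A in the resting liver, and after injury can become myofibroblast-like cells that deposit collagen. TAA is turned into reactive products mainly in hepatocytes and is used to model fibrotic injury. The kdrl promoter is that of a VEGF receptor of ECs, and hand2 encodes a transcription factor of mesenchymal cells. In most tissues promoters of widely used genes are open in every cell type, and regions that differ between cell types are more often distal.

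The EC TAA list was much closer to the HSC TAA list than to the EC control list. Of the EC TAA peaks, 90.1% overlapped an HSC TAA peak, 79.1% an HSC control peak, 70.2% a HEP TAA peak, 66.5% a HEP control peak and 48.9% an EC control peak. Of the HSC TAA peaks, 79.4% overlapped an EC TAA peak, 75.2% an HSC control peak, 65.4% a HEP TAA peak, 61.3% a HEP control peak and 47.4% an EC control peak. The EC control list therefore stood apart from both TAA lists, and the comparisons with control below depend on it. Whether this reflects the cells, the sort or the libraries was not tested.

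Promoters of listed marker genes were looked up in the lists. Gene names were at hand for only some promoter peaks on chromosomes 1, 10 and 11, from the study's annotation of HSC and HEP peaks, so peaks found in ECs alone carry no name here. They covered 17 of the 245 listed genes, in 32 promoter regions. The loci of the defining EC and HSC genes, kdrl and hand2 among them, were not analysed here. Of the 47 endothelial genes listed 1 was named, and of the 49 stellate and mesenchymal genes 1, so the EC and HSC labels could not be checked this way. Both TAA lists held strong peaks at promoters of hepatocyte genes. At uox, which encodes urate oxidase, the peak at chr11:8167780-8168161 scored 2509 in EC TAA, 2956 in HSC TAA and 1657 in HEP TAA. It scored 2491 in HSC control and 2207 in HEP control, and EC control had no peak. By rank it lay at 3.11% of EC TAA, 2.63% of HSC TAA, 3.68% of HEP TAA, 2.87% of HSC control and 2.01% of HEP control. At fgg, the gamma chain of fibrinogen, the peak at chr1:25679252-25679547 scored 2111 in EC TAA and 2560 in HSC TAA, 1135 in HEP TAA, 1931 in HSC control, 1199 in HEP control, and only 108 in EC control. At ambp, which encodes a secreted plasma protein, the peak at chr10:10801519-10801762 scored 1676 in EC TAA and 1822 in HSC TAA, with 876 in HEP TAA, 1330 in HSC control, 848 in HEP control and 106 in EC control. All 8 named hepatocyte genes (fgb, fga, fgg, ambp, uox, tdo2b, cyp3a65 and c3a.1) had a promoter peak in both TAA lists. Of their 16 promoter regions, 13 had a peak in EC TAA, 15 in HSC TAA, 11 in HEP TAA, 12 in HSC control and 12 in HEP control. EC control had peaks at 3 of them, none ranked better than 90.9% of the way down the list. Because the regions were named from HSC and HEP peaks, these counts favour those lists over the EC lists. Of all HSC TAA peaks, 79.4% overlapped an EC TAA peak, 75.2% an HSC control peak, 65.4% a HEP TAA peak, 61.3% a HEP control peak and 47.4% an EC control peak. Hepatocyte promoter peaks were in both injured profiles, where most peaks of any kind were shared. In HSCs most of these regions had a peak in control too. The part of hepatocyte promoter peaks in the similarity of the EC TAA and HSC TAA lists was not tested.

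**Figure D1:**
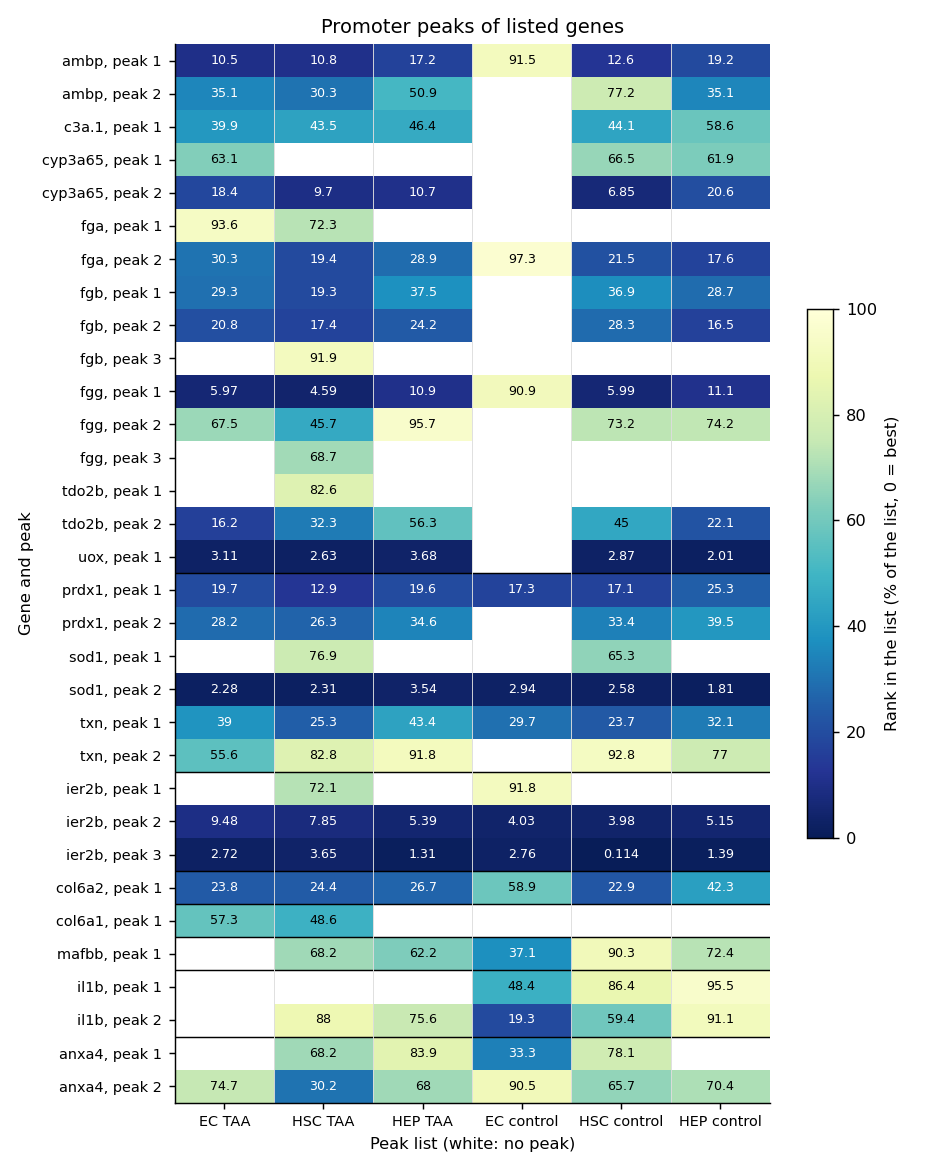
Promoter peaks of listed genes in the 6 lists. Each row is a promoter region of a named gene and each column a list, the number and colour give the rank of the peak as a percent of its list (0 is the best), and white means no peak; rows run from hepatocyte genes at the top through redox, immediate early, matrix, stellate, endothelial and leukocyte genes to the biliary gene at the bottom. The strongest peaks of uox, fgg and ambp ranked in the first 11% of the EC TAA and HSC TAA lists, and EC control had no peak or a peak past 90.9% of its list there.

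Among the other named genes, the 2 TAA lists shared most promoter peaks. Over the whole lists 90.1% of EC TAA and 79.4% of HSC TAA peaks were shared. The main peak of sod1, superoxide dismutase, at chr10:25699306-25699567 scored 2685 in EC TAA and 3043 in HSC TAA, and it was present in all 6 lists. Peaks of the redox genes txn (thioredoxin) and prdx1 (peroxiredoxin) were shared as well. The peak at col6a1, a collagen VI chain of the mesenchymal list, at chr11:34065626-34065795 scored 357 in EC TAA and 457 in HSC TAA and was absent from the other 4 lists. That at col6a2, chr11:33960279-33960488, was present in all 6 lists. It scored 993 in EC TAA and 1028 in HSC TAA, with 631 in HEP TAA, 853 in HSC control, 390 in HEP control and 239 in EC control. The collagen VI promoters thus did not separate the injured ECs from the injured HSCs.

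A few named promoter peaks were specific, and all of them were weak. At mafbb, a transcription factor gene of the endothelial list, EC TAA had no peak at chr11:25384190-25384308, whereas HSC TAA scored 254, HEP TAA 243, EC control 429, HSC control 125 and HEP control 185. At il1b, which encodes an inflammatory cytokine, chr10:44956554-44956703 had no EC TAA peak and scored 139 in HSC TAA, 181 in HEP TAA, 784 in EC control, 280 in HSC control and 118 in HEP control. A region at anxa4 of the biliary list scored 254 in HSC TAA, 151 in HEP TAA, 483 in EC control and 175 in HSC control. One at ier2b scored 225 in HSC TAA and 105 in EC control. In each of these regions EC control had a peak that was missing in EC TAA. A second sod1 peak was in HSC TAA (196) and HSC control (241) only. Another anxa4 peak was shared, with 223 in EC TAA and 835 in HSC TAA. HSC TAA alone had an extra peak near fgb (score 121), fgg (250) and tdo2b (167). EC TAA had a second cyp3a65 peak at chr1:59346624-59346766 (score 305) that HSC TAA lacked and that HSC control (234) and HEP control (235) held. In all, 22 of the 32 regions had a peak in both TAA lists, 8 in HSC TAA only, 1 in EC TAA only and 1 in neither, a count that cannot include regions open in ECs alone.

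Across the whole lists, 5386 of 54209 EC TAA peaks were specific, 9.94% (9.69 to 10.2%), and 12636 of 61245 HSC TAA peaks, 20.6% (20.3 to 21.0%). When the HSC TAA list was reduced to its best 54209 peaks, as many as the EC TAA list holds, 13.3% (13.0 to 13.6%) of EC TAA peaks and 13.8% (13.5 to 14.1%) of HSC TAA peaks were specific. Among the best 20000 peaks the shares were 13.3% in EC TAA and 13.4% in HSC TAA, with the best 10000 they were 15.1% and 15.2%, and with the best 5000 both were 17.4%. Lists of equal length that overlap nearly peak for peak must have nearly equal shares, so these cuts do not give the side of the difference. The control pair also had nearly equal shares (40.3% in EC control and 40.2% in HSC control at 51257 peaks each). At a cut, a peak also counts as specific when its partner ranks below the cut. Of the best 20000 EC TAA peaks, 2659 lacked a partner among the best 20000 of HSC TAA, but only 47 lacked one in its whole list. The shares at a cut are therefore not shares of peaks without any counterpart. Specific peaks covered 729 kb of EC TAA, 6.75% of its base pairs, and 1763 kb of HSC TAA, 14.5%.

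Peaks missing from the other list were nearly all weak. In EC TAA, 0 of the 5421 peaks in the best 10% by score were specific (3 peaks, the limit that a count of 0 allows, would be 0.0553%), 81 in the fifth step of 10% (1.49%) and 2342 in the last (43.2%). In HSC TAA, 3 of 6125 peaks in the best 10% were specific (0.0490%), 252 in the fifth (4.11%) and 4636 in the last (75.7%). The share rose with every step down the list in both cell types and was higher in HSC TAA, the longer list, in each of the 10 steps. The median score was 154 for EC TAA-specific peaks and 505 for EC TAA peaks that were shared, and it was 153 and 603 in HSC TAA. In EC TAA 78.5% of the specific peaks lay in the last 25% of the list, and in HSC TAA 73.0%. Only 147 EC TAA-specific peaks and 374 HSC TAA-specific peaks were in the better 50% of their lists, 2.73% and 2.96% of all specific peaks.

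The same look at the best peaks showed how far the injured cells differed from the control pair. Of the best 5000 EC TAA peaks, 0 lacked a peak anywhere in the HSC TAA list (3 peaks would be 0.06%), and of the best 5000 HSC TAA peaks 1 lacked a peak in EC TAA. Among the best 20000 the counts were 47 in EC TAA (0.235%) and 65 in HSC TAA (0.325%). In the control pair, 3496 of the best 20000 EC control peaks (17.5%) had no HSC control peak and 5087 of the best 20000 HSC control peaks (25.4%) had no EC control peak. A strong peak of one cell type without any counterpart in the other was thus rare after TAA and common in control.

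**Figure D2:**
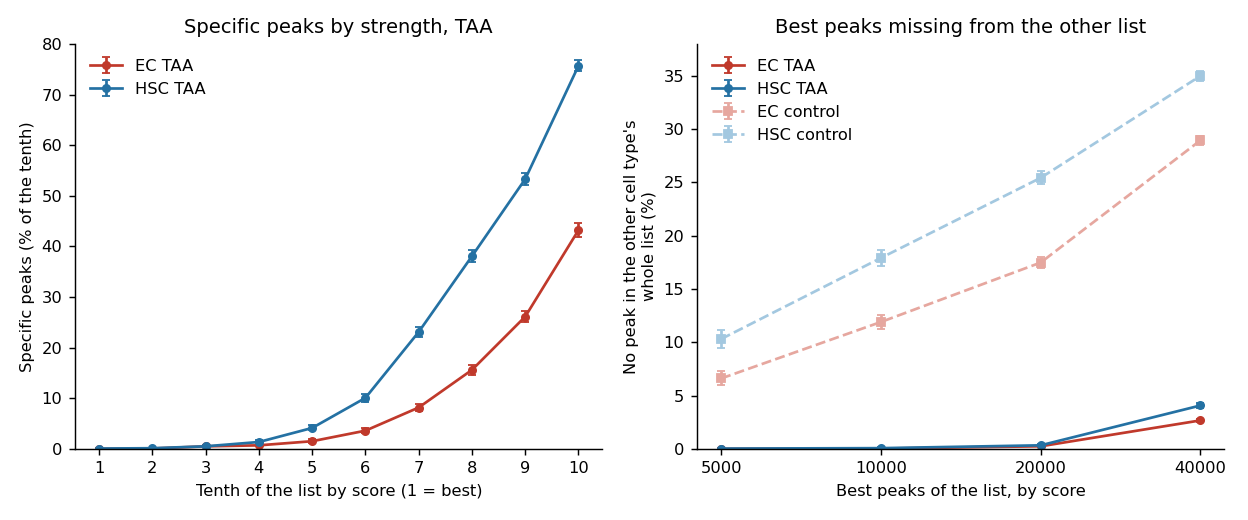
Specific peaks by strength. On the left, the percent of peaks in each step of 10% of the EC TAA and HSC TAA lists that are specific, and on the right, the percent of the best 5000 to 40000 peaks of a list with no peak in the whole list of the other cell type (the x axis steps by doubling), after TAA and in control; bars are 95% Wilson intervals. Specific peaks reach 43.2% of the last 10% in EC TAA and 75.7% in HSC TAA, and both TAA lines stay near 0 up to the best 20000 peaks while the control lines start at 6.60% and 10.3%.

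Specific peaks were narrower than shared ones, and most of the gap was not seen among peaks of like score. Their median width was 125 bp against 190 bp for shared peaks in EC TAA, and 129 bp against 195 bp in HSC TAA. In the fifth step of 10% the median width was 185 bp for specific and 185 bp for shared peaks in EC TAA, and 177 bp and 182 bp in HSC TAA. In the seventh step specific peaks were 155 bp and shared ones 161 bp wide in EC TAA, and 146 bp and 157 bp in HSC TAA. In the last 10% the median width was 108 bp and 114 bp in EC TAA, and 115 bp and 120 bp in HSC TAA. The widest specific peak measured 514 bp in EC TAA and 550 bp in HSC TAA, while shared peaks reached 1591 bp and 1321 bp.

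Shared peaks had a similar strength, width and place in both cell types. The lists formed 48460 pairs of peaks that were each other's best match. Over these pairs, the Spearman correlation of the scores was 0.886, against 0.559 over the 31924 pairs of EC control and HSC control, where points share the same genome and the same list-making. The pair of EC TAA and EC control had a correlation of 0.580 over 26344 pairs, and that of HSC TAA and HSC control 0.843 over 45977. In the EC TAA and HSC TAA pairs the summits lay a median of 7 bp apart and in 93.8% of pairs within 50 bp. Paired peaks must overlap, so a like place is partly built in. The EC control and HSC control pairs had a median of 10 bp, with 87.7% within 50 bp. The EC TAA peak was wider in 40.4% of pairs and the HSC TAA peak in 57.0%, and the median ratio of widths was 0.981 (quartiles 0.901 and 1.05). In the EC control and HSC control pairs the median ratio was 0.991 (quartiles 0.863 and 1.15). Median widths of paired peaks thus differed by little after TAA and in control, with a wider spread in control.

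Some shared peaks ranked much better in 1 cell type than in the other. The ranks, as a percent of each list, differed by more than 30 points in 2603 pairs, of which 570 ranked better in EC TAA and 2033 in HSC TAA. These percents come from lists of unequal length. Shared peaks as a whole ranked better in HSC TAA, with 62.2% in the better 50% of that list against 55.2% in EC TAA. The 2 counts are therefore not on an equal footing, and none at equal length is given here. No peak among the best 10% of EC TAA was matched to an HSC TAA peak past 50% of that list (0 of 5420), and 2 of 6121 were the other way round. The largest shift toward EC TAA was at chr16:47582719-47583036, with a score of 1484 in EC TAA and 132 in HSC TAA, and with 767 in HEP TAA, 80 in EC control, 1022 in HSC control and 1531 in HEP control. A peak at chr11:669469-669687 scored 896 in EC TAA and 109 in HSC TAA, 159 in HEP TAA, and was in no control list. The largest shift toward HSC TAA was at chr21:13933785-13933884, with 105 in EC TAA and 1664 in HSC TAA, 199 in HEP TAA, 714 in HSC control, 433 in HEP control and no peak in EC control. At chr9:13996093-13996246 the scores were 106 in EC TAA and 1050 in HSC TAA, with 881 in HSC control, 161 in HEP control and no peak in EC control or HEP TAA. Of the pairs that ranked better in EC TAA, 67.9% overlapped an HSC control peak, 61.2% a HEP control peak and 23.3% an EC control peak. For pairs that ranked better in HSC TAA these shares were 82.1%, 59.4% and 38.9%, and over all pairs 85.6%, 72.7% and 52.8%.

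The next question was which differences between the cell types in control were still there after TAA. All peaks of the EC and HSC lists, TAA and control, were merged into 90627 regions. After TAA, 17916 regions held peaks of only 1 cell type, against 42093 in control. Among those after TAA, 5359 were EC only and 12557 HSC only, and in control 19145 were EC only and 22948 HSC only. Only 2687 regions differed in the same direction both times, 15% of the differences after TAA and 6.38% of those in control. Another 1881 changed sides, 10.5% of the differences after TAA and 4.47% of those in control.

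Control differences of ECs and of HSCs ended in different states. Of the 19145 regions that were EC only in control, 16562 (86.5%) had no peak in either cell type after TAA, 1144 (5.98%) had a peak in both, 1028 (5.37%) were HSC only and 411 (2.15%) stayed EC only. Of the 22948 regions that were HSC only in control, 16927 (73.8%) had a peak in both cell types after TAA, 2892 (12.6%) had none, 853 (3.72%) were EC only and 2276 (9.92%) stayed HSC only. Regions that were EC only in control thus mostly lost their peak, and regions that were HSC only in control mostly gained a peak in ECs. The labels compare ECs with HSCs and not with hepatocytes, so an HSC-only region need not mark HSCs. The uox promoter peak named above, for example, was in HSC control and HEP control and not in EC control. With the best 20000 peaks of each list, a peak that ranks below the cut counts as absent, so these sets are not those of the full lists. Of the best 20000 EC control peaks, 8824 had no partner among the best 20000 of HSC control, against 3496 with none in its whole list. At this cut, 8056 of 8815 EC-only regions (91.4%) had no peak among the best 20000 of either TAA list. Another 216 (2.45%) stayed EC only and 204 (2.31%) were HSC only. Of the 8796 HSC-only regions at this length, 6108 (69.4%) had a peak in both lists and 901 (10.2%) stayed HSC only. With the lists cut to the length of the EC control list, 590 EC-only regions stayed EC only and 512 were HSC only. Control EC-only regions thus became HSC only more often than they stayed EC only with the full lists alone, where HSC TAA is longer. The EC-only and HSC-only sets both rest on the EC control list, which stood apart from both TAA lists.

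**Figure D3:**
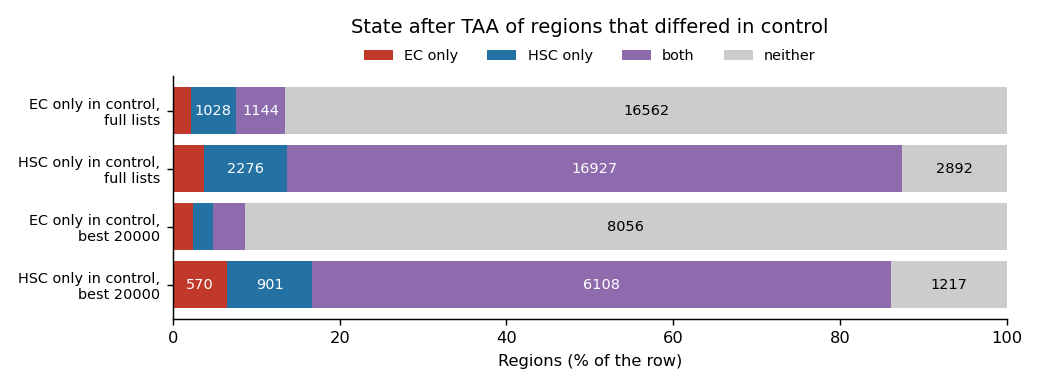
State after TAA of regions that held a peak of only 1 cell type in control. Each bar is a set of such regions, with all peaks in the upper pair of bars and with the best 20000 peaks of each list in the lower pair, the colours give the state after TAA in percent of the set, and the numbers inside are regions. In the lower pair a peak that ranks past the best 20000 of its list counts as absent, in control and after TAA. Most EC-only regions end in neither list (86.5% with all peaks) and most HSC-only regions in both (73.8%).

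Seen from the specific peaks after TAA, few had been specific before. Of the 5386 EC TAA-specific peaks, 421 (7.82%) overlapped a peak in EC control only, 865 (16.1%) in HSC control only, 294 (5.46%) in both controls and 3806 (70.7%) in neither. Of the 12636 HSC TAA-specific peaks, 2295 (18.2%) overlapped a peak in HSC control only, 1075 (8.51%) in EC control only, 2236 (17.7%) in both and 7030 (55.6%) in neither. Shared peaks gave the background for these states. In EC TAA, 2.44% of shared peaks overlapped a peak in EC control only and 35.1% in HSC control only, and in HSC TAA 2.40% and 35.0%. Both controls held 50.4% of shared peaks in EC TAA and 50.5% in HSC TAA, and neither control 12.1% in each list. EC control alone thus took a larger share of specific than of shared peaks in both cell types, and HSC control alone a smaller one. These shares were not matched for rank. Shared EC TAA peaks found in EC control only were themselves weak, with a median score of 213, against 742 for those in both controls. At equal length (51257 peaks of each list), 9.36% of the EC TAA-specific and 24.7% of the HSC TAA-specific peaks had been specific in the same direction, and with the best 20000 peaks 8.20% and 33.5%. At these lengths a peak that ranks below the cut of its list counts as absent. The order of the cell types was the same at each length, and the HSC share moved by over 1.5 times with the best 20000.

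Kept regions ranked better than new ones, with the larger gap on the HSC side. A better rank is partly built in, since a kept region must overlap a control peak and weak peaks overlap other lists less often. HSC TAA-specific peaks overlapped an HSC control peak in 86.6% of cases in the fourth step of 10% and 25.3% in the last. The 2276 regions that were HSC only in control and after TAA had a median rank of 75.8% of the HSC TAA list, and 195 (8.57%) lay in its better 50%. The 7030 regions new in HSC TAA had a median rank of 87.7%, and 81 (1.15%) lay in the better 50%. For ECs, the 411 kept regions had a median rank of 86.4% with 27 (6.57%) in the better 50%, and the 3806 new ones 89.2% with 61 (1.60%). Other EC TAA-only regions ranked better than the kept ones, at a median of 84.1% where HSC control alone had a peak and 80.4% where both controls had. On the HSC side, regions with a peak in EC control alone stood at 87.6% and those in both controls at 83.9%, so the kept ones ranked best. No peak in either HEP list was found for 317 of 411 kept regions on the EC side (77.1%) and 1431 of 2276 on the HSC side (62.9%), against 3366 (88.4%) and 6346 (90.3%) of the new ones. These shares were not matched for rank.

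The strongest kept regions with no HEP peak were picked by score after their values were seen, from 317 regions on the EC side and 1431 on the HSC side, and are given as examples. On the EC side, chr3:60111090-60111257 scored 942 in EC TAA and 202 in EC control, and chr4:64714190-64714375 scored 840 in EC TAA and 1063 in EC control. A region at chr7:59059170-59059382 scored 688 in EC TAA and 528 in EC control, but its rank was 34.8% of EC TAA and 30.6% of EC control. On the HSC side, chr24:9179499-9179705 scored 2059 in HSC TAA and 1572 in HSC control, and chr24:11138530-11138786 scored 1909 in HSC TAA and 1753 in HSC control. By rank the latter stood at 9.84% of HSC TAA and 7.54% of HSC control. The next on the HSC side, chr24:20579500-20579735, scored 938 in HSC TAA and 192 in HSC control.

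Regions open in both controls also separated the cell types after TAA, mostly by a missing EC peak. Of 31876 regions with peaks in both controls, 24477 (76.8%) had peaks in both cell types after TAA and 4887 (15.3%) in neither. In 2223 (6.97%) only the HSC TAA peak was present, and in 289 (0.907%) only the EC TAA peak. Of those 2223 regions, 69.0% had a HEP TAA peak and 62.5% a HEP control peak, and of the 289 regions 46.0% had a HEP TAA peak and 40.5% a HEP control peak. With equal lengths of 51257 peaks the counts were 1211 for HSC TAA and 488 for EC TAA. Both groups were weak, with median ranks of 83.9% of the HSC TAA list and 80.4% of the EC TAA list.

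HEP lists had no part in the choice of specific peaks. Of the EC TAA-specific peaks, 12.1% (11.3 to 13.0%) overlapped a HEP TAA peak, and of the HSC TAA-specific peaks 22.1% (21.4 to 22.8%). Among shared peaks the share was 76.6% in both lists. Part of this gap goes with rank, since weak peaks of any kind overlap other lists less often. When shared peaks were weighted to the ranks of the specific ones, the HEP TAA share was 41.1% in EC TAA and 34.3% in HSC TAA. In both cell types the share of specific peaks was below that of shared peaks of like rank. The weighted shares carry no interval, and the difference was not tested. With the best 20000 peaks of each list, HEP TAA peaks overlapped 37.3% of EC TAA-specific and 48.6% of HSC TAA-specific peaks. For shared peaks at this length the shares were 89.3% and 89.4%. The EC share of specific peaks was the lower at both lengths. At the cut, however, most peaks called specific had a partner further down the other list.

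In the control lists, EC TAA-specific peaks overlapped an HSC control peak in 21.5% and an EC control peak in 13.3%. For HSC TAA-specific peaks, 35.9% overlapped an HSC control peak and 26.2% an EC control peak. With each list cut to its best 20000, which makes another set of peaks specific, the HSC control share was 32.2% in EC TAA and 55.9% in HSC TAA. The EC control share was then 19.0% in EC TAA and 29.99% in HSC TAA. Shared peaks at this length overlapped HSC control in 88.7% in both TAA lists. They overlapped EC control in 55.3% in EC TAA and 55.4% in HSC TAA. Shared peaks of like rank in the full lists overlapped HSC control in 59.4% and EC control in 31.1% in EC TAA, and in 50.9% and 25.6% in HSC TAA, so HSC control held more than EC control among shared peaks too. For HSC TAA-specific peaks, EC control was the only list in which this weighted share of shared peaks was about level with theirs. The level values were an average over opposite gaps. In the fifth step of 10%, 27.4% of HSC TAA-specific and 50.7% of shared HSC TAA peaks overlapped an EC control peak. In the seventh step the shares were 26.2% and 32.6%. The order was reversed in the ninth step, with 26.6% and 22.4%, and in the last, with 26.3% and 20.2%. No peak in any of the other 4 lists was found for 3366 EC TAA-specific peaks (62.5%) and 6346 HSC TAA-specific peaks (50.2%), against 8.17% of shared peaks in each list.

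**Figure D4:**
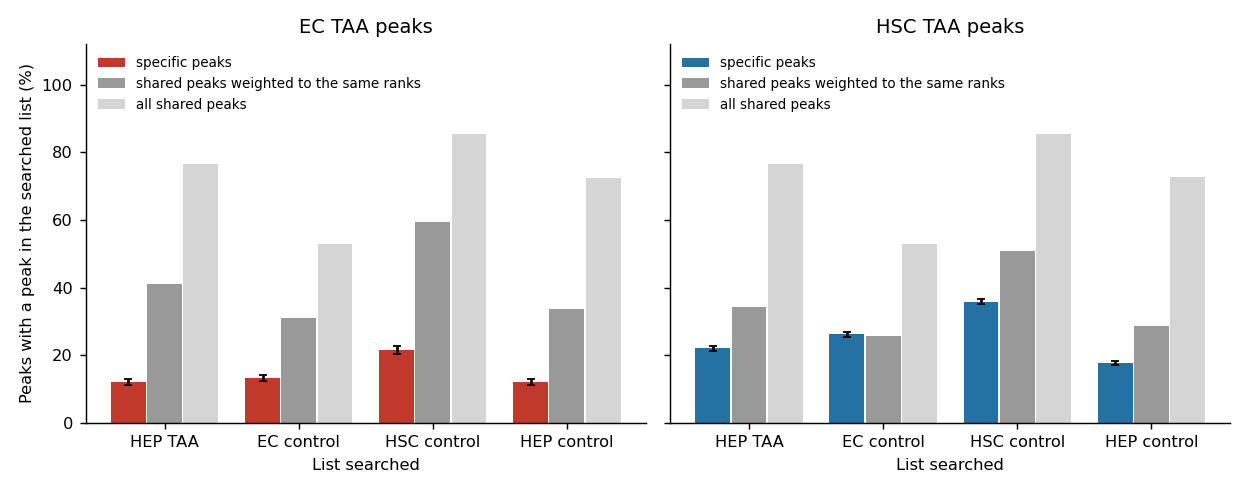
Specific and shared peaks searched in the 4 lists outside the comparison. For EC TAA (left) and HSC TAA (right) the bars give the percent of specific peaks with 95% Wilson intervals, of shared peaks weighted to the same ranks and of all shared peaks that overlap a peak of the list named on the x axis. Specific peaks lie below shared peaks of like rank in 7 of the 8 comparisons. In EC control, HSC TAA-specific peaks (26.2%) and shared peaks of like rank (25.6%) are level on average over ranks.

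The strongest specific peaks of each list were followed through the other lists. No gene annotation of the build of the lists was used for them, so they are given by position on GRCz11. The best EC TAA-specific peak, chr2:40310933-40311299, scored 1479 in EC TAA, 926 in HEP TAA, 821 in HSC control and 824 in HEP control, had no EC control peak, and lay 25994 bp from the nearest HSC TAA peak. The next, chr24:39951380-39951618 (score 1268) and chr24:39964151-39964358 (score 1154), lay 53264 bp and 66035 bp from the nearest HSC TAA peak and were in all 4 other lists. A peak at chr14:38067789-38067984 scored 1098 in EC TAA and 1310 in EC control, with 305 in HSC control. Of the 10 best, which scored 1038 to 1479, 9 had a peak in a HEP list, 5 in HSC control and 4 in EC control. Presence in other lists was usual for shared peaks at this strength. Of shared EC TAA peaks in the third step of 10%, 98.3% overlapped a HEP TAA peak, 98.9% an HSC control peak and 63.7% an EC control peak. The 10 best specific peaks were in these lists less often, with 8 in HEP TAA, 5 in HSC control and 4 in EC control. Only chr1:57501310-57501554, with a score of 1038, was found in no other list.

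On the HSC side the best specific peak, chr7:8413722-8414033, scored 2211 in HSC TAA and 3036 in HSC control, with 1311 in HEP TAA and 833 in HEP control, and lay 16631 bp from the nearest EC TAA peak. The 2 regions of chromosome 24 named above followed it. Peaks at chr3:15439341-15439589 (score 1875), chr22:18405673-18405956 (score 1797) and chr13:27591368-27591561 (score 1468) had HSC control scores of 1449, 1375 and 1381. Of the 10 best, which scored 1238 to 2211, 9 had a peak in HSC control, 7 in a HEP list and 2 in EC control. Of shared HSC TAA peaks in the second step of 10%, 99.7% overlapped an HSC control peak, so presence there was no trait of the specific ones. These shared peaks overlapped a HEP TAA peak in 99.7%, a HEP control peak in 99.6% and an EC control peak in 68.8%. The counts of 7 in a HEP list and 2 in EC control among the 10 best were below those shares. A peak at chr10:38456580-38456849, with a score of 1304, was absent from HSC control and was found elsewhere only in HEP control, with a score of 100.

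By position, specific peaks were spread over every chromosome. The EC TAA-specific share ran between 7.48% on chromosome 9 and 12.1% on chromosome 24, and the HSC TAA-specific share between 18.2% on chromosome 15 and 25.1% on chromosome 9. The HSC share was above the EC share on 25 of 25 chromosomes. HSC TAA-specific peaks were 2.35 times as many as EC TAA-specific peaks over all chromosomes, 1.88 times on chromosome 8 and 4.12 times on chromosome 9. These values come from lists of unequal length. With 54209 peaks in each list, the HSC share was above the EC share on 13 of 25 chromosomes, and the ratio was 1.03 in all, 0.774 on chromosome 7 and 1.85 on chromosome 9. On chromosome 9 10.5% of EC TAA and 17.9% of HSC TAA peaks were then specific, so it stayed lowest in ECs and highest in HSCs.

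**Figure D5:**
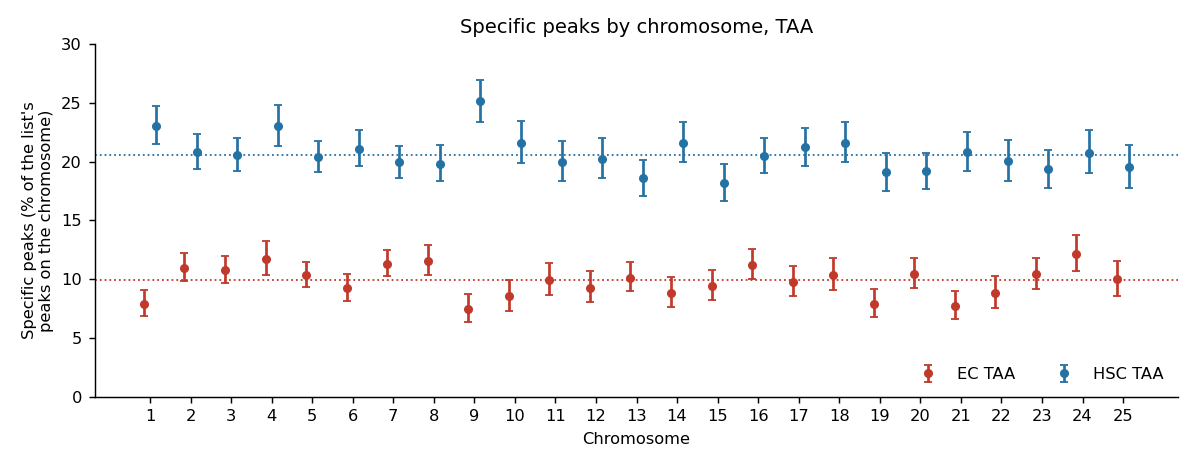
Specific peaks by chromosome. Points give the percent of EC TAA and HSC TAA peaks on each of the 25 chromosomes that are specific, bars are 95% Wilson intervals, and dotted lines mark the share over all chromosomes. With these full lists of unequal length HSC TAA lies above EC TAA on every chromosome, and the widest gap is on chromosome 9 (7.48% in EC TAA and 25.1% in HSC TAA).

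The long arm of chromosome 4, a repeat-rich region, held more specific peaks in both cell types. From 30 Mb on, 68 of 376 EC TAA peaks (18.1%, 14.5 to 22.3%) and 199 of 511 HSC TAA peaks (38.9%, 34.8 to 43.2%) were specific. On the rest of chromosome 4 the shares were 10.2% in EC TAA and 18.2% in HSC TAA. Within 1 Mb of chromosome ends, 11% of EC TAA peaks (9.91 to 12.1%) and 17.8% of HSC TAA peaks (16.5 to 19.1%) were specific. Elsewhere the shares were 9.81% (9.56 to 10.1%) and 20.6% (20.3 to 21.0%), so the share near ends was the lower in HSC TAA. Elsewhere here covers 50795 EC TAA and 57464 HSC TAA peaks, which is not the whole remainder of either list. All these shares come from full lists of unequal length and were not matched for rank.

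Most specific peaks lay within 10 kb of a peak of the other cell type, 68.9% in EC TAA and 59.6% in HSC TAA. The nearest HSC TAA peak was a median of 4927 bp from an EC TAA-specific peak, and the nearest EC TAA peak a median of 7025 bp from an HSC TAA-specific peak. Within 500 bp of the other list lay 13.5% of EC TAA-specific and 13.4% of HSC TAA-specific peaks, and beyond 50 kb 4.31% and 8.87%. These distances were of the order of the spacing within a list. The median distance to the next peak was 5022.5 bp for specific and 3815 bp for shared peaks in EC TAA, and 5848 bp and 3478 bp in HSC TAA.

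A few windows of 100 kb, picked after their counts were seen, gathered several specific peaks of 1 cell type, where the median window held 0 EC TAA-specific and 1 HSC TAA-specific peak. In the window that begins at 40300001 of chromosome 2, which holds the best EC TAA-specific peak, EC TAA had 7 peaks and HSC TAA 1, and 6 of the 7 were specific. All 6 overlapped an HSC control peak and 0 an EC control peak, and the window held 5 peaks in HEP TAA, 1 in EC control, 8 in HSC control and 6 in HEP control. Of the 6, 3 overlapped a HEP TAA peak and 4 a HEP control peak. In the window that begins at 26200001 of chromosome 16, EC TAA had 13 peaks and HSC TAA 5, and 7 of the 8 specific peaks were in no other list. On the HSC side, the neighbouring windows that begin at 38200001 and 38300001 of chromosome 1 held 1 and 6 peaks in EC TAA, 9 and 17 in HSC TAA, 0 and 4 in EC control and 11 and 14 in HSC control. Of their 8 and 11 HSC TAA-specific peaks, 5 and 7 overlapped an HSC control peak and 0 and 0 an EC control peak. In this stretch HSC peaks outnumbered EC peaks both after TAA and in control. The other windows with most HSC TAA-specific peaks differed from it. In that beginning at 37300001 of chromosome 17, EC control and HSC control had 10 peaks each, and 8 of the 9 HSC TAA-specific peaks were in no other list. In that beginning at 38700001 of chromosome 18, 6 of 9 were in no other list and 1 overlapped an HSC control peak.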

How the data were processed

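ATAC-seq libraries from 3 sorted cell types with and without TAA (18 libraries, 3 per group, grouped by their labels) were used as 6 peak lists. The authors trimmed reads with cutadapt (1.18), aligned them to GRCz11 with Bowtie2 (2.3.4.3), kept fragments up to 128 bp, shifted reads by 4 and 5 bp for the transposase, and called peaks with MACS2 (2.1.0.2) subcommands on p-value tracks of 3 replicates combined by Fisher's method, at a q-value of 1e-05. Peaks over low-complexity sequence were removed with bedtools (2.27.1). The deposited score of each peak is a whole number, 10 times the negative log10 of its q-value. It depends on depth, which is unknown because the lists hold no counts. Peaks were therefore ranked by score within a list, ties going to the wider peak. Scores of single regions are printed as deposited and are not on a common scale across lists. The other value columns (fold, p and q) were 0 throughout and not used.

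Overlaps, distances and merged regions were computed in Python (3.11.15) with numpy (2.4.6), pandas (2.3.3) and scipy (1.17.1), and tested on simulated peaks and against bedtools (2.31.1). Figures were drawn with matplotlib (3.10.9). Coordinates are on GRCz11 and count from 1. Shared peaks were weighted to the ranks of specific ones in 50 bins of the list. Which fish gave which library is not given in the sources used here, so independence of the libraries is unknown. The methods count fewer control fish than there are control libraries, so taken as written some control libraries share fish. No test was run because a group has 1 pooled list. Named regions were the 10 best specific peaks of a list with no peak of the other list within 500 bp, and the shared pairs with the largest rank shift, 5 in each direction, of which the text gives examples. Promoter names come from the study's annotation within 3 kb of a gene start, held only in part, matched to gene identifiers. The members, gene lists and measures were chosen with earlier results of these data known. Alternatives were equal list lengths, the best 20000 peaks, the better 50% of a list, an overlap of 50% of both peaks, and no peak within 500 bp. Distances to gene starts, motifs and sequences were not analysed here because no GRCz11 genome or annotation was at hand.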

Additional observations from a re-analysis of the deposited data

How the results depend on the processing

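Specific shares moved with list length. EC TAA had 9.94% specific peaks and HSC TAA 20.6% with the full lists, 13.3% and 13.8% at the length of the shorter list, and 13.3% and 13.4% with the best 20000 peaks. Set against the whole other list, the better 50% gave 0.542% in EC TAA and 1.22% in HSC TAA. An overlap of 50% of both peaks gave 12.8% and 22.8%, and no peak within 500 bp gave 8.60% and 17.9%. The share that had been specific in the same direction in control (7.82% in EC TAA and 18.2% in HSC TAA) was 9.36% and 24.7% with lists of the shortest length used, and 33.5% in HSC TAA with the best 20000 peaks. The share with a HEP TAA peak (12.1% in EC TAA and 22.1% in HSC TAA) was 30.4% and 40.0% at the shortest length, 37.3% and 48.6% with the best 20000, and 23.3% in HSC TAA with no peak within 500 bp. A shorter list takes weak peaks out of the list and its partner, so these shares cover other peaks. A peak whose partner falls below the cut then counts as specific. Of 22 alternatives, 4 lay inside the interval of the value with full lists. No paired analysis was possible because each group has 1 pooled list, and for the same reason no replicate could be left out. The planned shares within 3 kb of a gene start were not run, since no annotation of the build was at hand. Depth is unknown and limits every statement on weak peaks, which make up most specific ones.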
